A study of Mus musculus with 8 samples.

Results

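The transcripts of 9 proteins that act at the first step of T cell receptor signalling were compared between Brca1 wild type (WT) and Brca1 heterozygous (Het) naive CD8 T cells. They are the 5 kinase genes Lck, Fyn, Zap70, Txk and Csk and the 4 genes Ptprc, Ptpn22, Ptpn6 and Ubash3a of the phosphatase group. The genes were taken by symbol from a table of 22609 genes, and all 9 were found there and passed the filter on low values that left 12048 genes for testing. The cells came from spleens of C57BL/6 mice aged 3 months, with 4 WT libraries (45, 54, 57 and 65) and 4 Het libraries (31, 53, 56 and 139), numbered as in the sample titles. The labels name no treatment, and do not say how the Brca1 allele was made or that each library is a separate mouse. The p-values therefore measure the spread between libraries. The CD8 coreceptor gene Cd8a stood at 40591 to 50265.2 and Cd8b1 at 41051.8 to 55751.7 in the 8 libraries, with Cd4 at 406.2 to 1078.3.

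When a T cell receptor binds its ligand, the SRC family kinases Lck and Fyn phosphorylate the tail motifs of the CD3 and zeta chains. Zap70 docks on the phosphorylated tails and phosphorylates the adaptors Lat and Lcp2, and TEC family kinases such as Txk act on phospholipase C. Csk holds Lck and Fyn inactive through a tyrosine in their tail, the receptor phosphatase CD45 (Ptprc) removes that phosphate, and Ptpn22, Ptpn6 and Ubash3a restrain the active kinases.

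A value per gene sums over every transcription start of that gene, so a change of start within a gene was not visible here. RefSeq (build GRCm38.p6) gives 16 starts for the 9 genes, and the 2 starts of Lck lie 15269 bases apart. The 250 bases before a start of Lck, Zap70 and Ptpn22 are shown as 1 example each of a receptor-proximal kinase, the kinase that follows it and a phosphatase acting on both. They were chosen because they hold matches to the motifs below. The other 2 windows of Zap70 hold none, and the other of Lck holds GGAAGT alone. The other window of Ptpn22 holds 2 matches to TGTGGT and none to GGAAGT. None of these 3 windows overlaps an exon of the GENCODE M21 basic annotation. The Lck window precedes the upstream one of its starts (chr4:129573642-129573891, minus strand) and lies outside annotated genes, as does the Ptpn22 window (chr3:103859545-103859794, plus strand). The Zap70 window (chr1:36764265-36764514, plus strand) is intronic in Zap70 itself. Capitals mark the letters GGAAGT, a core recognised by ETS factors, and TGTGGT, a core recognised by RUNX factors, on either strand.
Lck: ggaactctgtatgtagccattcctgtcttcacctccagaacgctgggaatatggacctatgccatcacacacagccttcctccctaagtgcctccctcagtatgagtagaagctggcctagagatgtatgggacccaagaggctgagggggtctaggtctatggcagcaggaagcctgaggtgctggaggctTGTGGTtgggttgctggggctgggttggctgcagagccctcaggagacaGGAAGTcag
Zap70: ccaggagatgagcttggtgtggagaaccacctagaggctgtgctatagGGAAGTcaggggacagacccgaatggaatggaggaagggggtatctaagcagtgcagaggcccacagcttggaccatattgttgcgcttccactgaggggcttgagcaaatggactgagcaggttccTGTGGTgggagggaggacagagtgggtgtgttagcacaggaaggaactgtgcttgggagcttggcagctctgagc
Ptpn22: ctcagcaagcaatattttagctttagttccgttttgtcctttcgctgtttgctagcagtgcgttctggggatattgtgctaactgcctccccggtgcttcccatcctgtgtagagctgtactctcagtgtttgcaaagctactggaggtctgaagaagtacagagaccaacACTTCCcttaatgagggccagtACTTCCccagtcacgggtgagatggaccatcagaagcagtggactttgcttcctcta
The GGAAGT letters were in 9 of the 16 windows (56.3%) of 6 of the 9 genes, against 19.7% of all 32851 RefSeq windows of this length. The 2 windows of Ptprc overlap, and 1 match is counted in both. The TGTGGT letters were in 4 of the 16 (25.0%), against 14.0% of all. No match of one motif overlapped a match of the other in the 16 windows. The motifs were picked after the windows had been searched for several others, so the shares are a description, and a match is not a binding site.

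Transcript levels in the table are normalized read counts on a linear scale with the same distribution in each library for ranks averaging 100 or more, so the value of any of the 9 genes shows its rank within its library. Lck ranked between 42 and 54 and Ptprc between 5 and 19 in the 8 libraries. Nearest their median values, neighbouring ranks in WT 45 lay 1.98% and 4.26% apart. Small differences of these genes therefore appear as steps or ties. For the other 7 genes the step nearest the median value was at most 0.275% in WT 45. These are single steps, and spacing varies along the ranks that a gene takes. The lowest value of any of the 9 genes was 3070.5, far above the lowest value above 0 in a library, which was 0.2 to 0.3 for WT and 0.9 to 1.9 for Het. WT libraries had 15358 to 15569 genes above 0 and Het libraries 13863 to 14656. Values in bulk RNA cannot tell fewer cells of a type from less RNA per cell.

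None of the 9 genes passed the test between genotypes, and each 95% interval stayed within a 2-fold difference in either direction. By limma on log2(value + 1), with Benjamini-Hochberg adjustment over the 12048 tested genes, 0 of 9 passed an adjusted p of 0.05, where 0.515% of all tested genes did. Of the 5515 tested genes with a mean of at least 1000, as all 9 have, 1 passed, and all 62 genes that passed were lower in Het. With p unadjusted, 0 of 9 were under 0.05, against 8.19% of all, and in 0 of 9 did the libraries of the genotypes not overlap, against 5.0% of all. The 9 adjusted p-values lay between 0.653 and 0.970. The log2 differences, Het minus WT, lay between -0.20 and 0.14 with a median of 0.02, beside a median of 0.01 over all tested genes. Over the 9 genes the 95% intervals ran from -0.49 to 0.53 on the log2 scale, or from 0.713-fold to 1.45-fold.

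**Figure D1:**
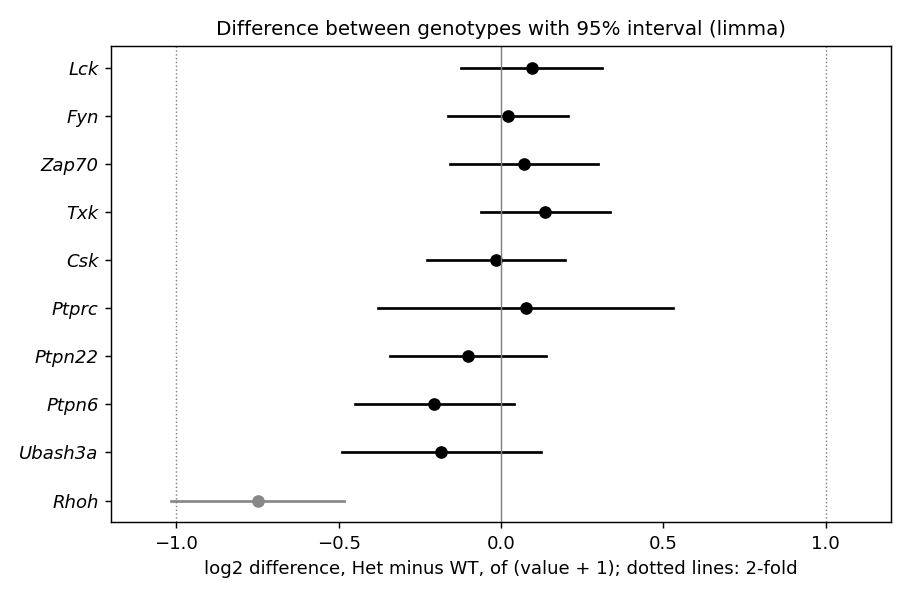
Log2 difference between Het and WT libraries of (value + 1), with the 95% interval from limma (n = 4 each), for the 9 genes and for the receptor adaptor gene Rhoh (grey). The 9 intervals include 0 and lie inside the dotted lines at a 2-fold difference, while that of Rhoh runs from -1.01 to -0.48.

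Lck, the kinase carried by the CD8 coreceptor, was among the steadiest of the transcripts. Libraries WT 45, 54, 57 and 65 held 34851, 37863.2, 35560.2 and 40591 normalized reads. Libraries Het 31, 53 and 56 held 40051.4 each, and Het 139 held 38559.8. The Het libraries lay inside the WT range, below WT 65 and above the other 3 WT libraries, and the 3 equal values are 1 shared rank. WT libraries averaged 37216 ± 2591 and Het libraries 39679 ± 746 (SD, n = 4 each), and Het minus WT was 0.09 log2 units (SE 0.10, 95% interval from -0.12 up to 0.31, adjusted p by limma = 0.787, exact permutation p = 0.143).

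Fyn, the second SRC family kinase of T cells, read 11934.3 (45), 12521.9 (54), 12177.4 (57) and 12056.2 (65) across the WT libraries, and 12089.7 (31), 11276.4 (53), 12768.9 (56) and 13403.5 (139) across the Het libraries. The Het libraries spread on both sides of the narrow WT range, with 2 above it and 1 below it. WT libraries averaged 12173 ± 253 and Het libraries 12385 ± 913 (SD, n = 4 each), and Het minus WT was 0.02 log2 units (95% interval from -0.16 up to 0.21, adjusted p by limma = 0.948).

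Zap70, the kinase that docks on the phosphorylated receptor tails, was at 5946.8 (45), 6973.7 (54), 7005.2 (57) and 6711.4 (65) across the WT libraries, and 8272.1 (31), 6696.3 (53), 6256.9 (56) and 6846.5 (139) across the Het libraries. Only Het 31 lay above the WT range, and WT 45 was the lowest library. The log2 difference was 0.07 (SE 0.10, 95% interval from -0.16 up to 0.30, adjusted p by limma = 0.849), and it was -0.01 without Het 31. Het 31 also had the highest mean log2 level of the NK cell markers, which read 7.8 there and 5.34 to 7.02 in the other libraries, and of the B cell markers, at 10.28 against 7.79 to 9.37. NK cells use Zap70 as well. With the B cell marker level as a covariate the difference of Zap70 was -0.00085, and the part of NK cells in it was not tested.

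Txk, a TEC family kinase of resting T cells, had the largest positive difference of the 9 genes. It was at 3863.8 (45), 4206 (54), 4064.4 (57) and 4006.1 (65) across the WT libraries, and 4924.1 (31), 4268.6 (53), 3917.2 (56) and 4689.9 (139) across the Het libraries. Of the Het libraries, 3 exceeded every WT library, while Het 56 fell within their range. WT libraries averaged 4035 ± 142 and Het libraries 4450 ± 447 (SD, n = 4 each), and Het minus WT was 0.14 log2 units (SE 0.09, 95% interval from -0.06 up to 0.34, adjusted p by limma = 0.698, exact permutation p = 0.171). Without Het 56 the difference was 0.20 and without Het 31 it was 0.086 (limma adjusted p of 0.302 and 0.9997).

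Csk, which restrains Lck and Fyn, differed least. It was at 13272.4 (45), 15420.8 (54), 14619.6 (57) and 13673.4 (65) across the WT libraries, and 16054.1 (31), 13297.8 (53), 13297.8 (56) and 13832.4 (139) across the Het libraries. The genotypes covered nearly the same range, with Het 31 highest and WT 45 lowest. The log2 difference was -0.01 (95% interval from -0.23 up to 0.20, adjusted p by limma = 0.970). Zap70, Txk and Csk were thus all highest in Het 31, and Zap70, Txk, Csk and Lck all lowest in WT 45.

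**Figure D2:**
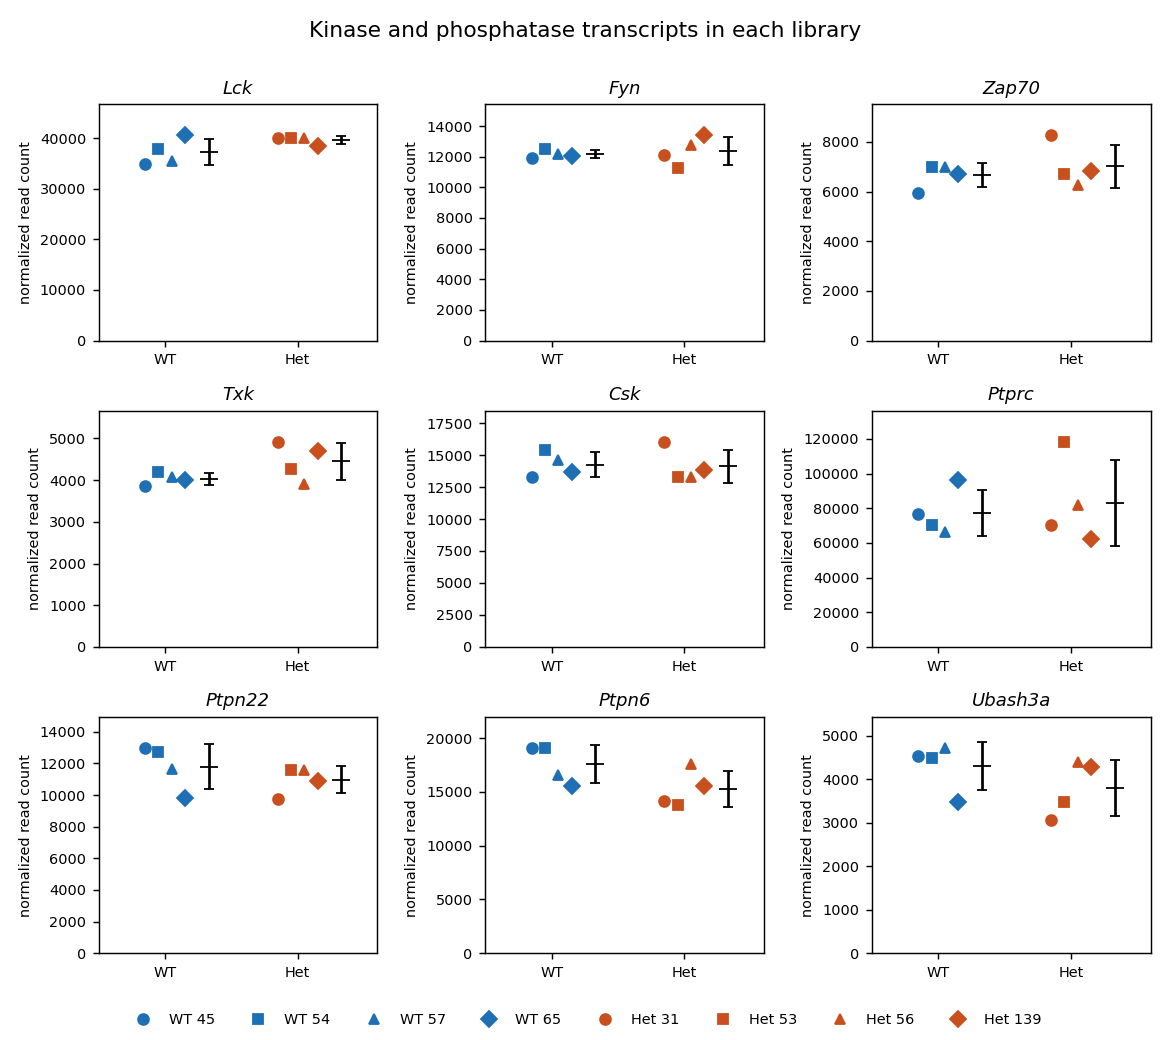
Normalized read count (vertical axis, linear from 0) of the 9 genes in each WT (blue) and Het (orange) library, 1 symbol per library, with the mean and SD of the 4 libraries beside them in black. The genotypes overlap in every panel, and Ptprc has the widest spread, from 62217.9 to 118429.

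Ptprc, the CD45 phosphatase of all white blood cells, varied most between libraries of the same genotype among the 9. It was at 76658.5 (45), 70062.9 (54), 66283.6 (57) and 96009.1 (65) across the WT libraries, and 70062.9 (31), 118429 (53), 81746.4 (56) and 62217.9 (139) across the Het libraries. Het 53 was the highest library and Het 139 the lowest, and WT 65 was the highest of its genotype. The log2 difference was 0.08 (SE 0.21, 95% interval from -0.38 up to 0.53, adjusted p by limma = 0.925), and it was -0.11 without Het 53. The SD of its log2 level within a genotype was 0.33, larger than in 92.7% of the 5515 tested genes with a mean of at least 1000, whose median SD was 0.16. For Lck and Fyn the SD was 0.07 and 0.08, larger than in 5.46% and 7.43% of these genes. In ranks, Ptprc moved between 5 and 19, Lck between 42 and 54 and Fyn between 291 and 387. The SD of a gene thus depends also on how far apart neighbouring ranks lie at its level. CD45 is made in several splice forms that a value per gene does not separate.

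Ptpn22, a cytosolic phosphatase that partners with Csk and dephosphorylates Lck and Zap70, was at 12975.7 (45), 12727.5 (54), 11670.5 (57) and 9808.2 (65) across the WT libraries. The Het libraries held 9780.6 (31), 11587.9 (53), 11587.9 (56) and 10870.2 (139). Of the WT libraries, 3 exceeded all Het libraries, while WT 65 lay next to the lowest, Het 31. The log2 difference was -0.10 (SE 0.11, 95% interval from -0.34 up to 0.14, adjusted p by limma = 0.798). It was -0.048 without Het 31, -0.053 without WT 45, -0.062 without WT 54 and -0.19 without WT 65.

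Ptpn6 (SHP-1), a phosphatase recruited by inhibitory receptors, had the smallest p of the 9 genes. It was at 19079.4 (45), 19079.4 (54), 16608.4 (57) and 15545.5 (65) across the WT libraries, and 14171.4 (31), 13796.1 (53), 17577.4 (56) and 15500.1 (139) across the Het libraries. Of the Het libraries, 3 were below every WT library, by little in the case of Het 139, and Het 56 was within the WT range. WT libraries averaged 17578 ± 1787 and Het libraries 15261 ± 1708 (SD, n = 4 each), and Het minus WT was -0.20 log2 units (SE 0.11, 95% interval from -0.45 up to 0.04, unadjusted p by limma = 0.0939, adjusted p = 0.653, exact permutation p = 0.114). In all, 1711 tested genes had a p as small or smaller. Without Het 56 the difference was -0.27 (limma adjusted p = 0.266). B cells and myeloid cells carry Ptpn6 too, and the mean log2 levels of both marker lists were higher in Het 31 and Het 53, the libraries with the lowest Ptpn6, than in every WT library. The myeloid level was so in Het 139 as well. With the B cell marker level as a covariate the difference of Ptpn6 was -0.15. That fit allows a slope of either sign, so it does not measure RNA carried by these cells. Their part in the difference of Ptpn6 was not tested.

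Ubash3a (STS-2), a T cell protein of the same restraining group, was at 4540.2 (45), 4475.8 (54), 4717.7 (57) and 3482.7 (65) across the WT libraries, and 3070.5 (31), 3468 (53), 4398.1 (56) and 4288.3 (139) across the Het libraries. Het 31 and 53 and WT 65 were low, and the other 5 libraries lay together above them, so the genotypes overlapped. WT libraries averaged 4304 ± 557 and Het libraries 3806 ± 642 (SD, n = 4 each), and Het minus WT was -0.18 log2 units (SE 0.14, 95% interval from -0.49 up to 0.12, adjusted p by limma = 0.733). It was -0.085 without Het 31 and -0.28 without WT 65.

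Ptpn22, Ptpn6 and Ubash3a shared a pattern over most libraries that cut across genotype. All 3 were above their own mean in WT 45, 54, 57 and Het 56, and all 3 below it in WT 65 and Het 31. The 3 parted in Het 53, where only Ptpn22 was above its mean (0.03), and in Het 139, where only Ubash3a was (0.10). In Het 31 their log2 deviations from the mean were -0.21, -0.20 and -0.39, and in WT 65 they were -0.21, -0.07 and -0.20. Ptprc was above its mean in WT 65 (0.29) and most of all in Het 53 (0.59), where Ptpn6 and Ubash3a were below theirs (-0.24 and -0.21). Among the kinases, the deviations of Zap70 and Txk were largest in Het 31, at 0.28 and 0.22.

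**Figure D3:**
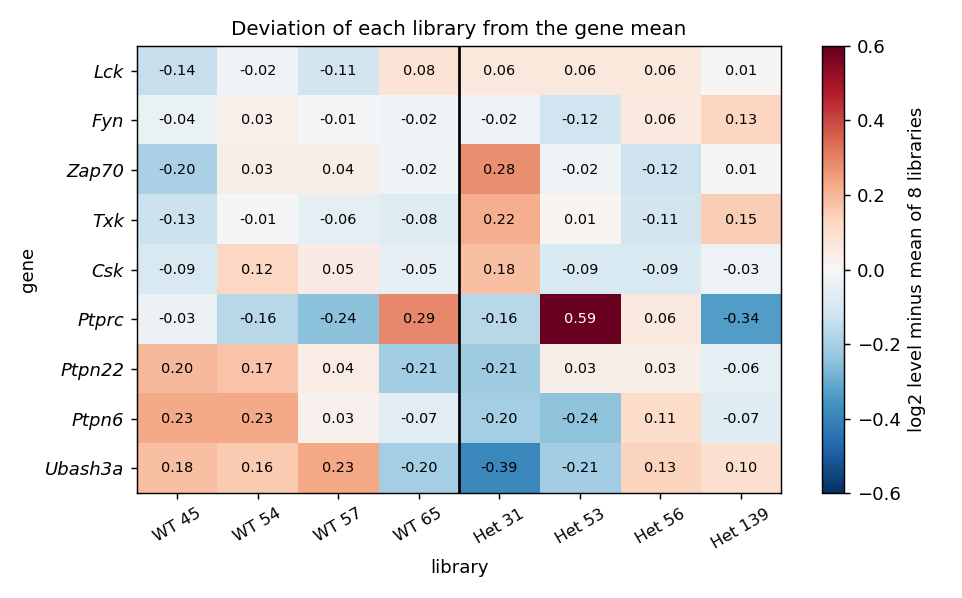
Log2 level of each gene (rows) in each library (columns) minus the gene's mean over the 8 libraries, with the value in each cell and a line between WT (left) and Het (right). Ptprc in Het 53 (0.59) and Ubash3a in Het 31 (-0.39) stand farthest from their gene means, and Ptpn22, Ptpn6 and Ubash3a are below their means in both WT 65 and Het 31.

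As deposited, the log2 difference was above 0 for 4 of the 5 kinases and below 0 for 3 of the 4 phosphatase genes, but scaling the libraries to equal levels of the CD3 and CD8 genes turned Lck, Fyn, Zap70, Txk and Ptprc below 0. That scaling moved the median of all tested genes by -0.14, and with it no gene of the 9 passed either. The balance of a kinase and its antagonist within a library is free of such scaling, and it is given here as a description without a test. The log2 ratio of Lck to Ptpn6 was 0.87 (45), 0.99 (54), 1.10 (57) and 1.38 (65) across the WT libraries, and 1.5 (31), 1.54 (53), 1.19 (56) and 1.31 (139) across the Het libraries. It averaged 1.09 ± 0.22 over WT and 1.38 ± 0.16 over Het libraries (SD, n = 4 each), and WT 65 stood inside the Het range. The ratio of Lck to Csk, its main inhibitor, was 1.39 ± 0.13 in WT and 1.49 ± 0.13 in Het. The ratio of Lck to Ptpn22 was 1.66 ± 0.27 and 1.86 ± 0.12, and that of Zap70 to Ubash3a was 0.64 ± 0.23 and 0.89 ± 0.40. Among the 9 pairs examined, Het minus WT was largest for Lck to Ptpn6 (0.30). It was 0.02 for Lck to Ptprc, 0.04 for Txk to Lck, 0.07 for Lck to Fyn and 0.09 for Ptprc to Csk. The genotypes overlapped in each of the 9 pairs. As the read counts are not per length, only differences of a ratio between libraries can be read, not its size.

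**Figure D4:**
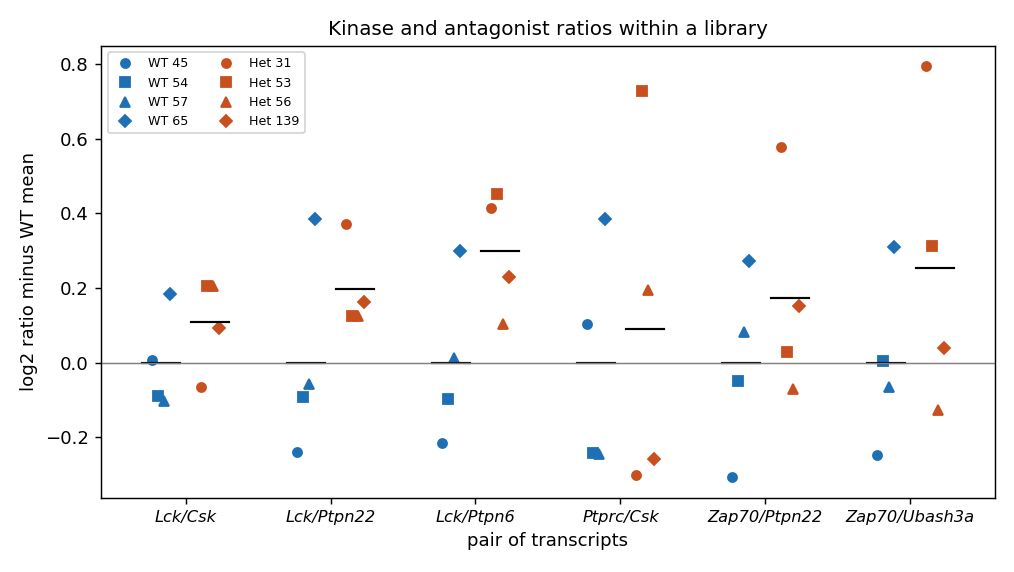
Log2 ratio of 2 transcripts within each library, minus the WT mean of that ratio, for 6 pairs (horizontal axis), with 1 symbol per library and a bar at the mean of each genotype. WT 65 lies above the other WT libraries in each of the 6 pairs and, except for Lck/Ptpn22, inside the range of the Het libraries.

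Per kilobase of exon, using the merged exons of each gene in the GENCODE M21 basic annotation, the order of the levels was nearly the same in the 8 libraries. Lck averaged 16062 ± 1118 per kilobase over WT and 17125 ± 322 over Het libraries, and Ptprc averaged 15091 ± 2582 and 16236 ± 4859 (SD, n = 4 each). These 2 did not differ beyond their spread, as Ptprc was above Lck in WT 65 and Het 53 and below it in the other libraries. Ptpn6 came next in every library, at 6745 ± 686 and 5856 ± 656 per kilobase. Ptpn22 (4300 ± 525 and 3994 ± 311) and Csk (4268 ± 289 and 4230 ± 393) changed places between libraries, as did Fyn (3172 ± 66.0 and 3227 ± 238) and Zap70 (2966 ± 220 and 3126 ± 389). In Het 31 Zap70 (3685) stood above Ptpn22 (3566) as well. Txk was eighth and Ubash3a ninth in every library, at 1652 ± 58.0 and 564 ± 73.0 per kilobase in WT. The lengths come from a later annotation than the counts, so these levels are approximate.

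The genes with the most similar course over the 8 libraries were sought among 8859 others with a mean of at least 100. For Lck they were Scyl3 (Pearson r = 0.96), Sptlc1 (0.96) and Gtpbp2 (0.95). For Zap70 they were Tmem50b (r = 0.99), Lrp10 (0.98) and Coro1a (0.98), an actin regulator of white blood cells. Coro1a, like Zap70, was highest in Het 31, at 81746.4, and lowest in WT 45 and Het 56, at 51007.5 each. For Ptprc they were Zfp275 (r = 0.97), Txlng (0.97) and Ap1s2 (0.96), each highest in Het 53. These are the best of many comparisons over 8 libraries and are given as a description. None of these 9 correlated genes passed between genotypes (limma adjusted p of 0.611 or more).

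Of the wider receptor pathway, 5 lists with 94 tested genes, 1 changed by limma. It was Rhoh, a GTPase without enzymatic activity that helps bring Zap70 and Lck to the receptor. Rhoh was at 5415.7 (45), 5977.4 (54), 5619.4 (57) and 6628.7 (65) across the WT libraries, and 4407 (31), 3301.7 (53), 3055.9 (56) and 3395.6 (139) across the Het libraries. All Het libraries were below all WT libraries, a log2 change of -0.75 (SE 0.12, 95% interval from -1.01 up to -0.48, adjusted p by limma = 0.0254). That change was known before the lists were written. It kept an adjusted p under 0.05 in 11 of 18 alternative settings and missed it in 7: on leaving out WT 54, WT 57, WT 65, Het 53 or Het 139 (adjusted p by limma of 0.110, 0.0976, 0.0988, 0.0822 and 0.0787), with a minimum mean of 50 (0.0506) and without a trend (0.0669). Among the 94, Het exceeded WT in 50 and fell short of it in 44 (median log2 difference 0.01), 6 had an unadjusted p under 0.05 and 4 did not overlap between genotypes. Over all tested genes these shares were 8.19% and 5.0%, and 0.515% changed.

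Receptor and coreceptor chains had 0 of 10 genes past the threshold, 8 higher and 2 lower, with a median log2 difference of 0.05. Nearest to it were Cd3d (0.26), Cd3g (0.20) and Cd8b1 (0.15), with limma adjusted p of 0.690, 0.694 and 0.744. Adaptors of the proximal complex had 1 of 26 past it, Rhoh, with 13 higher and 13 lower and a median of -0.02. Sit1, a membrane adaptor that binds SHP phosphatases, averaged 1717 ± 150 over WT and 2283 ± 291 over Het libraries (SD, n = 4 each, log2 difference 0.41, limma adjusted p = 0.246), and Sla, which lowers receptor levels, averaged 5364 ± 199 and 6408 ± 443 (0.25, limma adjusted p = 0.372). Both were higher in every Het library than in every WT library.

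The effectors that follow, such as phospholipase C, protein kinase C and calcineurin, had 0 of 29 genes past the threshold, 13 higher and 16 lower (median -0.06). Among them were Itpkb (-0.18) and Nfatc1 (-0.17), with limma adjusted p of 0.675 and 0.685. Other phosphatases and ubiquitin ligases had 0 of 21 past it, 10 higher and 11 lower (median -0.01). Ptpn3, at 30.2 ± 8.79 in WT and 12.1 ± 5.50 in Het, was low in every library (log2 difference -1.34, limma adjusted p = 0.496). Ubash3b, the paralog of Ubash3a, was at 777 ± 76.3 and 669 ± 125 (-0.23, limma adjusted p = 0.690), and the ligase gene Cblb at 5814 ± 260 and 5340 ± 544 (-0.13, limma adjusted p = 0.719).

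**Figure D5:**
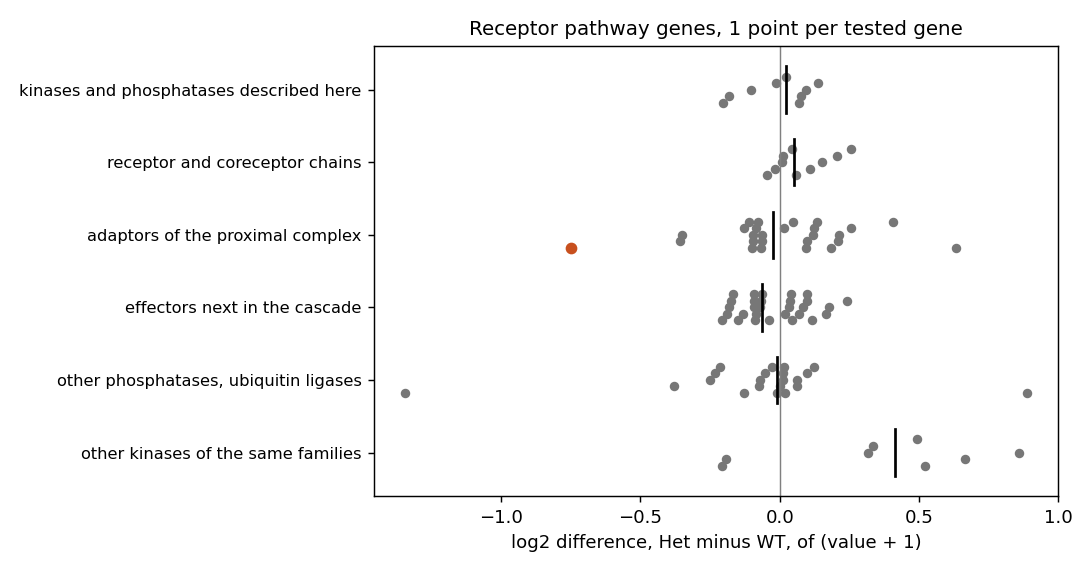
Log2 difference, Het minus WT, of each tested gene of the 5 pathway lists and of the 9 genes described here (rows), with a bar at the median of each row and genes past the limma threshold in orange. Rhoh, among the adaptors at -0.75, is the one orange point, and the 9 genes lie between -0.20 and 0.14.

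Other kinases of the SRC, TEC and CSK families and their relatives had 0 of 8 tested genes past the threshold, 6 higher and 2 lower, with a median log2 difference of 0.41. Blk, a B cell kinase, was at 84.2 (45), 368.3 (54), 228.8 (57) and 385.5 (65) across the WT libraries, and 878 (31), 451.7 (53), 181.4 (56) and 241.7 (139) across the Het libraries (log2 difference 0.66, limma adjusted p = 0.751). It was highest in Het 31 and lowest in WT 45, and the genotypes overlapped. Matk, a relative of Csk, averaged 1369 ± 173 over WT and 1195 ± 144 over Het libraries (SD, n = 4 each, -0.19, limma adjusted p = 0.690).

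Markers of other cells differed between libraries. The mean log2 level of the B cell and of the NK cell markers exceeded every WT library in Het 31 and Het 53, and that of the myeloid markers did so in Het 31, Het 53 and Het 139. The 10 B cell markers had sums of 3187 to 8191 over the WT and 3814 to 19127 over the Het libraries, with 10 of 10 higher in Het and 0 past the threshold. The NK cell markers, with 7 of 8 tested genes higher and 0 past it, summed to 1903 to 2740 and 2212 to 4939, and Klra4 was listed at 0 throughout. Eomes was the largest term of this sum in every library and hardly differed (1445 ± 146 against 1463 ± 369, log2 difference -0.01). The median log2 difference of the 8 tested genes was 0.76. The 9 myeloid markers, 8 of 9 higher with 0 past it, summed to 8112 to 10384 and 8104 to 14914. Ctss was the largest term there, with a log2 difference of 0.22 beside a median of 0.42 for the list. The NK and myeloid sums are thus weighted to Eomes and Ctss, and they are not shares of cells. The CD4 and regulatory T cell markers, 6 of 6 higher with 0 past it, summed to 1652 to 2478 and 1703 to 2618. The 11 nerve and stroma markers, listed with earlier results of these data known, were lower in Het in 11 of 11. Of all 12048 tested genes, 5787 were lower. Of the 11, 5 passed the limma threshold, against 0.515% of all tested genes, and all 62 genes that passed were lower in Het. In 7 of the 11 the genotypes did not overlap, against 5.0% of all tested genes. As the list was written with results known, these shares are only a description. Krt5 and Krt14 were high in WT 45 and WT 54 alone, with Krt5 at 1125.6 and 758.9 there, 9.6 in WT 57 and 0.2 in WT 65. The 11 markers summed to 3809 to 8539 in WT and 289 to 1036 in Het. For comparison, the 5 kinase genes described here had sums of 69868 to 77038 among WT and 75591 to 81391 among Het libraries. The part of these cells in the differences of the 9 genes was not tested, and the B cell covariate does not measure it.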

How the data were processed

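Polyadenylated RNA of 8 libraries was sequenced from stranded preparations, per the labels' protocols. Values came from 1 table by the authors, holding a normalized read count for each gene, a linear signal with 1 decimal. Per the submitters' processing notes, the tools were CASAVA, TopHat2, HTSeq and DESeq and the build was mm9, with no version or role attached. How values were normalized, and whether counting used strand, is not given in the sources used here. When each library was sorted, 100% of the 9513 ranks averaging 100 or more agreed within 2% across libraries, so the libraries share 1 distribution down to that level, and their totals (27488600 to 27489700) do not show their depth. Lower down the distributions differed between genotypes, as the genes above 0 show. No reads were recovered and no count model was used.

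Genes with a mean of at least 10 were tested on the log2(value + 1) scale by limma (3.58.1, under R 4.3.3), 2-sided and allowing variance to follow mean level. The fit was tested on simulated data. Fold changes on this scale understate low genes. Single values were tested by an exact 2-sided permutation test over the 70 assignments of 4 against 4 libraries (smallest p 0.0286). The members and lists were chosen with earlier results of these data known. Named genes were the 9 members, Rhoh, up to 3 genes of each pathway list with the smallest p, and for Lck, Zap70 and Ptprc the 3 genes of highest correlation, without gene models; some genes that this rule names are not reported here. Of 99 pathway genes listed, 97 were found and 94 tested. RefSeq symbols matched 9 of 9 members. The labels name no sex, litter or batch. Alternatives were the pseudocount (0.5 or 5), the filter, 2 scalings, no trend, array weights, a robust fit, a B cell covariate and leaving out each library.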

Additional observations from a re-analysis of the deposited data

Results flagged for a closer look

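Lck in Het 139, at a normalized read count of 38559.8, lay apart from the other 3 Het libraries, which were all at 40051.4. Its distance to them is the whole range of the genotype, because the 3 others hold the same rank (43) and Het 139 holds rank 45. The difference is 2 ranks, and the step between ranks 43 and 44 was 1.98% in WT 45. The threshold it passed is passed by chance in about 1 of 20 groups of untied values, a rate that does not hold for tied values, and 18 groups were examined.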

How the results depend on the processing

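In 18 of 18 alternative settings 0 of the 9 genes passed the limma threshold, with the lowest adjusted p of any of them between 0.266 and 0.9997. In 3 of the settings some of the 9 had an unadjusted p under 0.05 by limma. There were 2 without Het 56, 1 without WT 65 and 1 with CD3 and CD8 scaling. Ptpn22, Ptpn6 and Ubash3a were below 0 in all 18 settings, but their size depended on single libraries. With libraries scaled to the CD3 and CD8 genes, the log2 differences of Lck (-0.047), Fyn (-0.12), Zap70 (-0.071), Txk (-0.0051) and Ptprc (-0.065) turned below 0, as did Zap70 with the B cell covariate (-0.00085). Leaving out each library, Csk ranged from -0.078 to 0.024, Fyn from -0.017 to 0.066, Zap70 from -0.011 to 0.12, Ptprc from -0.11 to 0.20, Lck from 0.064 to 0.14, Txk from 0.086 to 0.20, Ptpn22 from -0.19 to -0.048, Ptpn6 from -0.27 to -0.16 and Ubash3a from -0.28 to -0.085. The count of changed genes over the table, 62 as reported, was 123 with any value above 0, 14 with a mean of at least 50, and 11 to 91 leaving out each library. The count of changed pathway genes, 1 as reported, was 0 with a mean of at least 50 or without a trend, and 0 to 1 leaving out each library. Fewer genes or libraries enter some of these fits, and other causes were not tested. No paired analysis was possible because the genotypes share no number. The shared distribution limits Ptprc and Lck to few ranks, and total RNA cannot be compared.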
